A study of Schizosaccharomyces pombe with 9 samples.

Results

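The 8 genes described here keep the zinc and copper content of the fission yeast Schizosaccharomyces pombe in balance, and were taken by gene ID from a table of read counts for 5129 genes. All 8 were found in the table, and all 8 passed the filter on low counts. Poly(A)-selected RNA was measured in 9 libraries, 3 for each of 3 genotypes. The genotypes were wild type (WT, strain DHP43), a deletion of tra1 (tra1D, strain DHP609) and the allele tra1-AA (strain DHP1509), for which the labels name no sequence change. All cultures were grown in YES, a rich medium, to mid-logarithmic phase. Tra1 is a pseudokinase of the PIKK family and a subunit of the transcriptional co-activator SAGA, and the series concerns how the Hsp90 cochaperone TTT helps such proteins to mature. Each genotype is 1 strain, so the genotype cannot be told apart from other differences between the strains. The titles mark WT and tra1D libraries as re-analysed and do not mark tra1-AA, so a difference of tra1-AA from either of them cannot be told apart from that mark. Whether replicates came from separate cultures is not stated in the labels, and the p-values therefore cover the spread among these libraries, which may be technical.

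Zinc and copper are needed by many enzymes and are toxic in excess, so yeast cells adjust import, storage and binding of each metal. In fission yeast Zrt1, a ZIP family transporter of the plasma membrane, brings zinc into the cell, Zhf1, of the cation diffusion facilitator family, moves it into the endoplasmic reticulum, and the metallothionein Zym1 binds it in the cytosol. The zinc-finger repressor Loz1 shuts off genes such as zrt1 and adh4 when zinc is plentiful. For copper, Ctr4 and Ctr5 form a joint transporter at the plasma membrane, Ctr6 releases copper from the vacuole, and the copper-sensing activator Cuf1 turns on the ctr genes when copper is scarce.

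The stretches below show the regulatory letters in front of the genes whose levels are described next. They were read by gene ID from the RefSeq genome and annotation of assembly ASM294v3, from 250 bases before to 50 bases after each annotated gene start, and no coordinates are printed because the build behind the counts is not given in the sources used here. Each stretch is 30 bases, 5′ to 3′ on the strand of its gene, and the capitals mark the motif. The genes shown lie on the forward strand, ctr5 and zym1 on chromosome I and ctr6 and zrt1 on chromosome II. The first 2 lines are the copper-signalling element to which Cuf1 binds, at 117 and 103 bases before the start of ctr5, and the next line is the same element at 52 bases before ctr6. The fourth is the core of the Loz1 response element (CGNNGATCNT) at 194 bases before zrt1, and the last is a TATA box (TATAAA) at 32 bases before zym1.
ctr5 upstream element: tttggcgggaATTTTGCTGAgcgattatag
ctr5 downstream element: tgctgagcgaTTATAGCTGGtagtttttac
ctr6 element: attagtgtacGTGGTGCTGGagtggatcgg
zrt1 Loz1 core: tattttcaagCGTCGATCCTtaaaccttgg
zym1 TATA box: ttggaaaatgtaTATAAAggcaccctactc

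Both strands of the windows of 5112 protein-coding genes were searched. The copper-signalling element was found in 25.9% of them and in 3 of the 8 genes, ctr5, ctr6 and cuf1. In ctr5 it matched 3 times, the last of them after the annotated start and on the opposite strand. In cuf1 it matched only on the opposite strand. The Loz1 core was rarer, at 1.4% of windows, and zrt1 was the only one of the 8 with a match. The TATA box letters were in 48.1% of windows and in 5 of the 8 genes, zym1, zrt1, loz1, ctr5 and cuf1. In zym1, zrt1, loz1 and ctr5 a match on the gene's strand began 30 to 36 bases before the start, whereas that of cuf1 began after the start. The window of ctr4 held none of these letters, and its annotated start is the start codon itself. A match of letters is a description and not evidence of binding.

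Library totals ran from 5738138 to 8101004 counts, at which 1 count was worth 0.126 to 0.168 CPM, the depth-scaled count of a gene with edgeR's TMM factors applied. The deleted gene checks the labels: tra1 (SPBP16F5.03c) had 771, 704 and 561 counts in WT, 608, 570 and 470 in tra1-AA but only 5, 2 and 2 in tra1D. Levels of different genes can be compared only per length, so CPM were also divided by the coding length. On this scale the WT order was ctr5 at 690.6 ± 177 CPM per kb (mean ± SD, n = 3), ctr4 at 409 ± 135, zhf1 at 263 ± 26.0, ctr6 at 233 ± 16.03, zrt1 at 138 ± 9.43, zym1 at 119 ± 28.3, cuf1 at 44.9 ± 5.51 and loz1 at 32.6 ± 2.36. The membrane transporters for both metals therefore stood above the regulators cuf1 and loz1. On this scale the WT values of ctr4 and ctr5 came within their SDs of each other, as did those of zhf1 and ctr6 and those of zrt1 and zym1. With the length of the annotated transcript in place of the coding length, ctr4 stood above ctr5. The other close pairs then lay further apart, with zhf1 at 172.3 and ctr6 at 130.5 CPM per kb. For zrt1 and zym1 the values were 78.35 and 34.03.

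**Figure D1:**
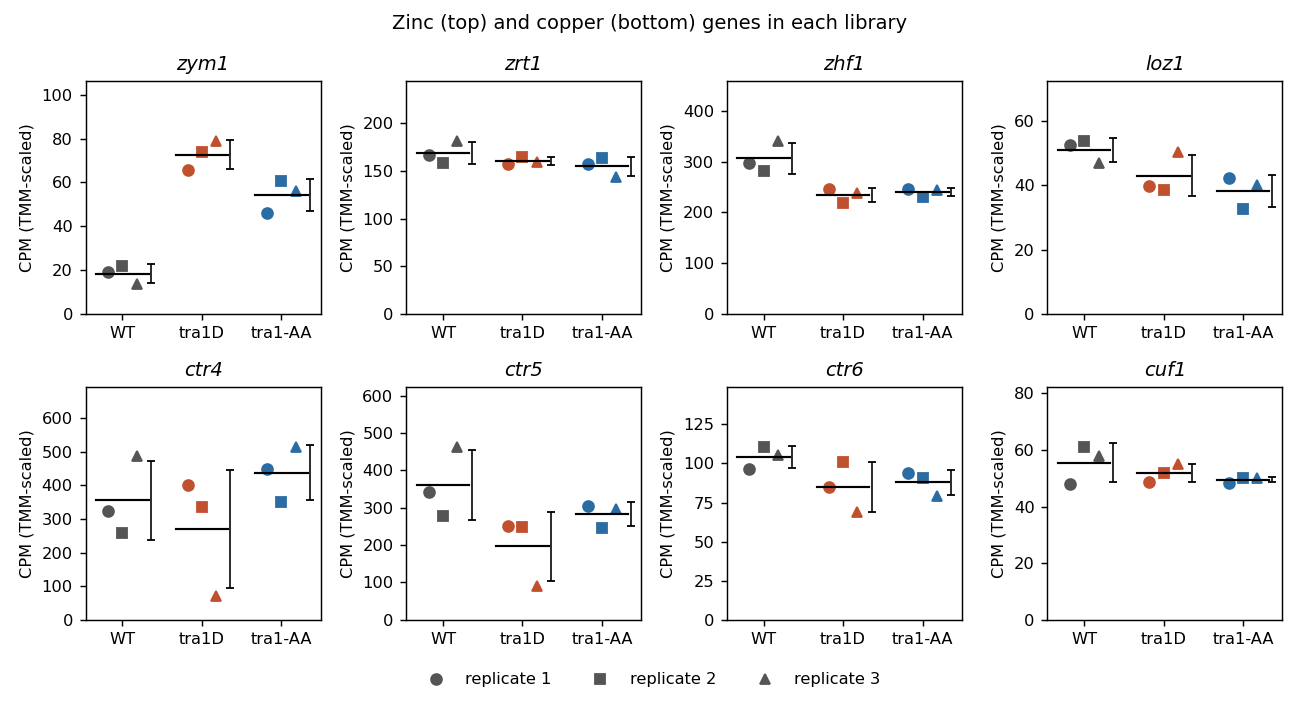
TMM-scaled CPM (y axis) of the 8 genes in the 3 genotypes (x axis). Each symbol is a library, its shape the replicate number, the black line the mean and the bar the SD over 3 replicates; zym1 is higher in all 6 mutant libraries than in WT, and tra1D replicate 3 is the lowest library for ctr4, ctr5 and ctr6.

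The zinc genes are described first, beginning with metal binding. zym1 (SPAC22H10.13), the metallothionein gene, was at 19.2, 21.96 and 13.5 CPM in WT replicates 1 to 3, at 65.5, 73.8 and 78.8 CPM in tra1D and at 46.1, 60.5 and 56.2 CPM in tra1-AA. Every mutant library lay above every WT library, and every tra1D library above every tra1-AA library. zym1 rose 3.96-fold in tra1D (log2 fold change 1.99, SE 0.16, edgeR quasi-likelihood test with Benjamini-Hochberg adjustment over 4913 genes, adjusted p = 1.30e-05). In tra1-AA zym1 rose 2.96-fold (log2 fold change 1.57, SE 0.16, edgeR, adjusted p = 9.53e-05). In all 9 fits that left out a library both rises of zym1 passed, at 1.82 to 2.14 in tra1D and 1.40 to 1.72 in tra1-AA. The difference between the mutants, tra1-AA minus tra1D, was -0.42 on the log2 scale for zym1 (SE 0.14) and did not pass after adjustment (edgeR, adjusted p = 0.999, unadjusted p = 0.0126). In bulk RNA such as this, a change in the share of cells that use a gene and a change in its RNA per cell cannot be told apart.

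zhf1 (SPAC23C11.14), which encodes the transporter that moves zinc out of the cytosol, went the other way. Its levels were 298.3, 281.4 and 340.1 CPM in WT, 245.5, 219 and 239 in tra1D, with 246, 230.2 and 244 in tra1-AA. No mutant library reached the lowest WT library, and the mutants overlapped each other. Antisense transcripts annotated over zhf1 could share its reads, since the strand setting of the counting is not known, and their part was not tested. zhf1 fell by 0.39 on the log2 scale in tra1D (SE 0.08, edgeR, adjusted p = 0.00909) and by 0.35 in tra1-AA (SE 0.08, edgeR, adjusted p = 0.0123). These are levels 1.31-fold and 1.28-fold below WT. The call in tra1D was lost without tra1D replicate 2 (edgeR, adjusted p = 0.0527), and that in tra1-AA without tra1-AA replicate 2 (edgeR, adjusted p = 0.0599). Both zhf1 calls were also lost when libraries were scaled by their totals alone, with adjusted p of 0.0535 in tra1D and 0.0541 in tra1-AA (edgeR).

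The importer gene zrt1 (SPBC16D10.06) stayed within a narrow band. It was at 167, 158 and 181 CPM in WT, 157, 165 and 159 in tra1D, with 157, 164 and 144 in tra1-AA, and the 3 groups overlapped. Its log2 fold change was -0.07 in tra1D (SE 0.07, edgeR, adjusted p = 0.525) and -0.12 in tra1-AA (SE 0.07, edgeR, adjusted p = 0.252). Of the 8 genes, zrt1 had the smallest spread within tra1D, with an SD of 2.59% of the mean.

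loz1 (SPAC25B8.19c), encoding the zinc-responsive repressor, was at 52.8, 53.75 and 46.9 CPM in WT, 39.95, 38.7 and 50.3 in tra1D, with 42.25, 32.7 and 39.99 in tra1-AA. The tra1-AA libraries all lay below WT, whereas tra1D replicate 3 lay within the WT range. loz1 fell by 0.42 on the log2 scale in tra1-AA (SE 0.13, edgeR, adjusted p = 0.0430). Its log2 fold change in tra1D was -0.26 (SE 0.13, edgeR, adjusted p = 0.214), and the difference between the mutants, -0.16 (SE 0.13), did not pass (edgeR, adjusted p = 0.999). The tra1-AA call of loz1 passed in 4 of 9 fits with a library left out. It was lost without WT replicate 1 or 2, tra1D replicate 1, or tra1-AA replicate 2 or 3, with adjusted p from 0.0553 to 0.155 (edgeR) and log2 fold changes from -0.45 to -0.33. It was also lost with library totals alone (-0.37, edgeR, adjusted p = 0.108).

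**Figure D2:**
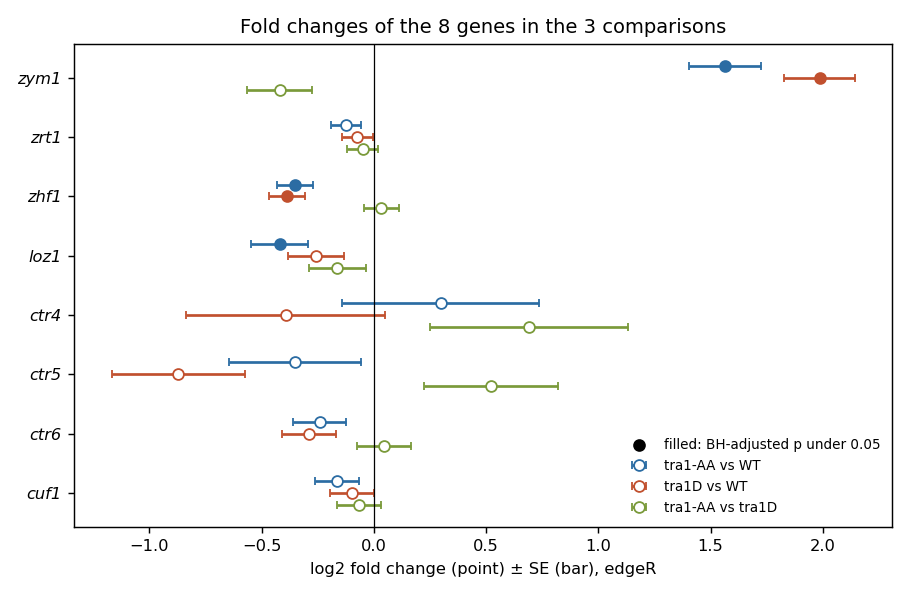
log2 fold change of each gene (x axis, points) with its SE (bars) for each mutant against WT and for the mutants against each other, from 1 edgeR fit of 9 libraries. Filled points passed at a BH-adjusted p under 0.05: zym1 above 0 and zhf1 below 0 in both mutants, and loz1 below 0 in tra1-AA.

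In WT and tra1D the copper uptake genes ctr4 and ctr5 had the widest spread of the 8 genes within a genotype. ctr4 (SPCC1393.10), a subunit gene of the plasma membrane copper transporter, was at 323, 258 and 486 CPM in WT, 402, 337 and 71.8 in tra1D, with 449, 349.8 and 512 in tra1-AA. The ranges of all 3 groups overlapped, with tra1D replicate 3 far below every other library. Its SD was 33% of the mean in WT, 64.7% in tra1D and 18.7% in tra1-AA. The log2 fold change of ctr4 was -0.39 in tra1D (SE 0.44, edgeR, adjusted p = 0.602) and 0.30 in tra1-AA (SE 0.44, edgeR, adjusted p = 0.682). Without tra1D replicate 3, the value in tra1D was 0.05 (SE 0.23, edgeR, adjusted p = 0.913).

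ctr5 (SPAC1142.05), which encodes the partner subunit, was at 342, 279 and 461 CPM in WT, 249.7, 249 and 90.7 in tra1D, with 305, 246.5 and 297 in tra1-AA. The tra1D libraries all lay below WT and replicate 3 was again the lowest, while the tra1-AA libraries overlapped WT. The log2 fold change of ctr5 was -0.87 in tra1D (SE 0.30), which did not pass (edgeR, adjusted p = 0.0826), and -0.35 in tra1-AA (SE 0.29, edgeR, adjusted p = 0.456). Without tra1D replicate 3 the change of ctr5 in tra1D was -0.53 (SE 0.18, edgeR, adjusted p = 0.104).

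The order of the libraries within a genotype was partly shared by ctr4 and ctr5. In WT both were highest in replicate 3 and lowest in replicate 2, in tra1D both were lowest in replicate 3, and in tra1-AA both were lowest in replicate 2. In tra1-AA the highest library was replicate 3 for ctr4 and replicate 1 for ctr5, and tra1D replicates 1 and 2 differed more for ctr4 than for ctr5. Same-numbered libraries of WT and tra1-AA also deviated together across all genes, with correlations of their deviations from the group means of 0.109 to 0.357. Differently numbered libraries of these groups ran from -0.351 to 0.085. For tra1D, differently numbered pairs ran from -0.054 to 0.13 with WT and from -0.174 to 0.22 with tra1-AA. Correlations over 0.1 thus also arose without a shared number. Deviations were taken from the mean of each group, so the values of differently numbered pairs are not independent of those of same-numbered pairs. In a fit of WT and tra1-AA alone with the replicate number as a block, ctr4 rose by 0.32 on the log2 scale (edgeR, adjusted p = 0.0265) and ctr5 fell by 0.33 (edgeR, adjusted p = 0.0298). That blocked fit called 5 of the 8 genes in tra1-AA, these and zym1, zhf1 and loz1, where 18.5% of the 4888 genes tested in it were called. Same-numbered libraries of WT and tra1D did not deviate together (-0.116 to -0.01), and the blocked fit of those groups called neither gene. With the block in the fit of all 9 libraries ctr4 and ctr5 did not pass in tra1-AA either, with adjusted p of 0.715 and 0.477 (edgeR), and loz1 narrowly missed (edgeR, adjusted p = 0.0528). Without the block, leaving out a library gave adjusted p of 0.369 to 0.911 for ctr4 and 0.159 to 0.803 for ctr5 in tra1-AA (edgeR).

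ctr6 (SPBC23G7.16), the gene of the vacuolar copper transporter, was at 96.2, 110.2 and 106 CPM in WT, 84.8, 101 and 69.1 in tra1D, with 93.7, 90.9 and 79.1 in tra1-AA. The tra1-AA libraries lay below WT, and tra1D overlapped WT through replicate 2. The log2 fold change of ctr6 was -0.29 in tra1D (SE 0.12, edgeR, adjusted p = 0.149) and -0.24 in tra1-AA (SE 0.12, edgeR, adjusted p = 0.196). Without tra1D replicate 2, ctr6 passed in tra1D, with a fall of 0.43 (edgeR, adjusted p = 0.0494), and without tra1D replicate 3 it was -0.16 (edgeR, adjusted p = 0.405). cuf1 (SPAC31A2.11c), encoding the copper-sensing activator, was at 47.8, 60.8 and 57.8 CPM in WT, 48.5, 51.9 and 55.2 in tra1D, with 48.4, 50.05 and 50.1 in tra1-AA. Its groups overlapped, with log2 fold changes of -0.10 in tra1D (SE 0.10) and -0.16 in tra1-AA (SE 0.10), neither of which passed (edgeR, adjusted p = 0.560 and 0.292).

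**Figure D3:**
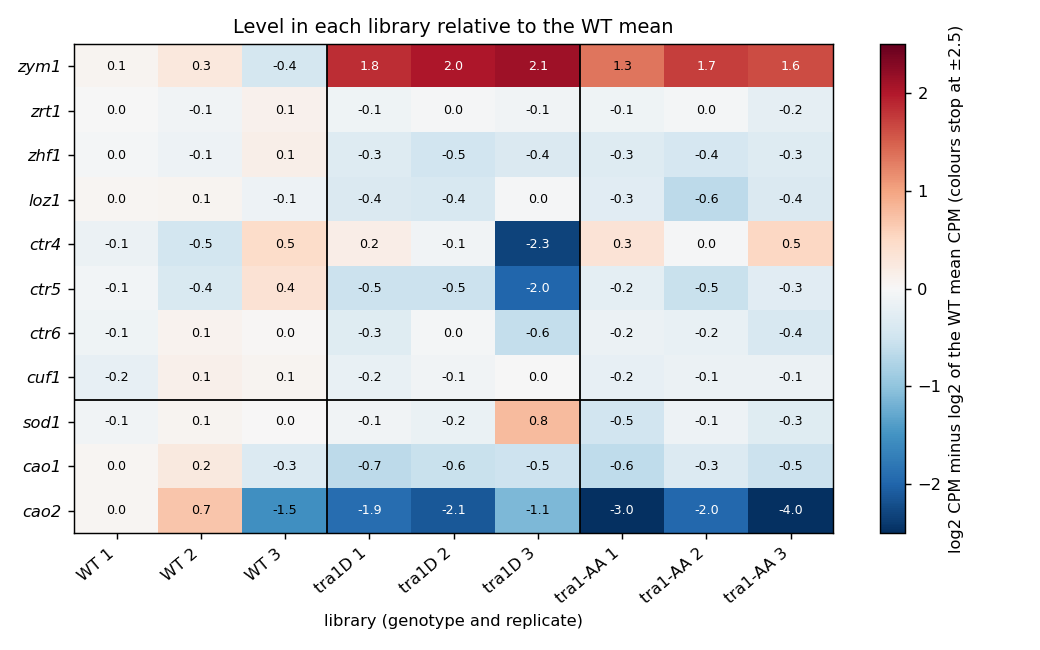
log2 CPM of each gene minus the log2 of its WT mean CPM (colour and printed number) in the 9 libraries (x axis). Below the line are further copper genes; in tra1D replicate 3 ctr4 and ctr5 are at their lowest and sod1, the superoxide dismutase gene, at its highest.

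The levels of several copper genes in the library tra1D replicate 3 were far from those of the other tra1D libraries, a point noticed after the values were seen. Against the mean log2 level of the other tra1D libraries, ctr4 was 5.11-fold lower in it, the lowest of 4614 genes ranked, and ctr5 was 2.74-fold lower, the fifth lowest. ctr6 was 1.34-fold lower, at rank 45 from the bottom, while cuf1 sat at rank 854 from the top. sod1, encoding the copper- and zinc-dependent superoxide dismutase, was 1.89-fold higher in it, with 363, 344 and 669.9 CPM in tra1D replicates 1 to 3. cao2, a copper amine oxidase gene, was 1.82-fold higher in it, the fifth from the top. The other ranked copper genes were less far off. atx1, cox19, ccc2, ccs1 and sco1 stood at ranks 224, 235, 677, 1012 and 1455 from the bottom. cox1101, cao1 and cox17 stood at ranks 945, 1111 and 1311 from the top. Genes outside the lists also lay at the ends of tra1D replicate 3. gdt1 and alr2 were at ranks 2 and 4 from the bottom, and SPBPB10D8.02c and nrg1 at ranks 1 and 2 from the top. In this library 4 genes lay more than 2-fold below both other tra1D libraries and 1 more than 2-fold above. Other libraries also differed from their group: WT replicate 3 had 21 genes more than 2-fold below and 5 above both other WT libraries, with cao2 3.72-fold lower (rank 7 from the bottom) and ctr4 1.68-fold higher (rank 15 from the top). cao2 was 2.69-fold lower in tra1-AA replicate 3, at rank 4 from the bottom. In tra1D replicate 3 frp1, the gene of a ferric reductase, was at rank 3 from the bottom, with 19.0, 10.9 and 4.86 CPM in tra1D replicates 1 to 3. Without tra1D replicate 3 zym1 rose in tra1D by 1.93 and zhf1 fell by 0.40, and both calls stood (edgeR, adjusted p = 0.000148 and 0.0302).

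**Figure D4:**
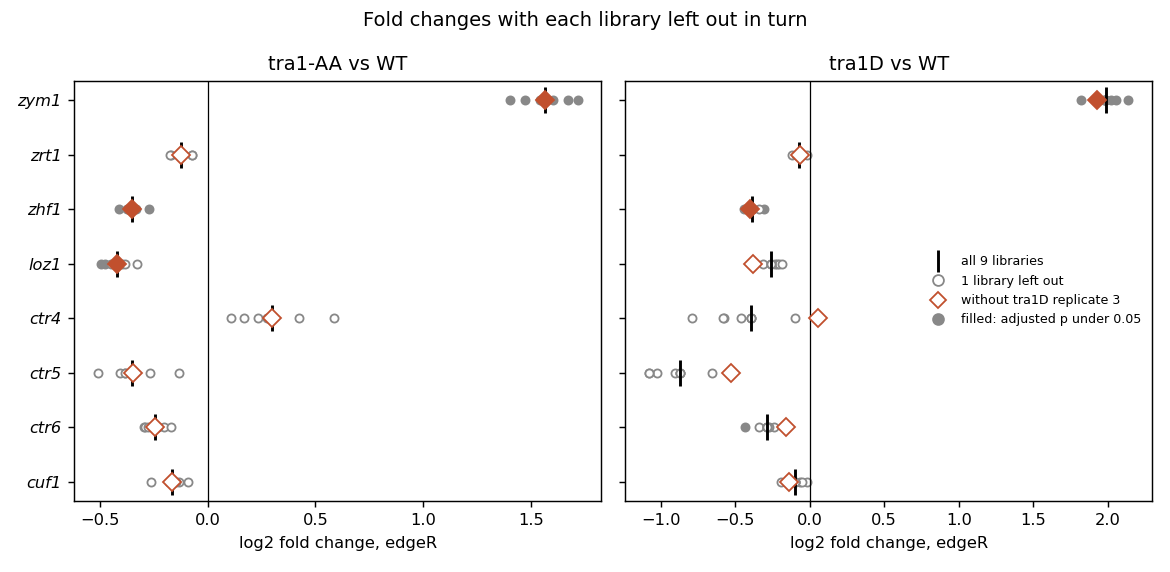
log2 fold change (x axis) of the 8 genes against WT with all 9 libraries (black bar) and with each library left out in turn (circles, or diamonds for tra1D replicate 3); filled symbols passed at an adjusted p under 0.05. Without tra1D replicate 3 the change of ctr4 in tra1D moves from -0.39 to 0.05.

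In tra1-AA against WT, 3 of the 8 genes were called, 1 up and 2 down, where 15.9% of the 4913 tested genes were called, 7.94% up and 7.96% down. In tra1D against WT, 2 of the 8 were called, 1 up and 1 down, where 11.5% of genes were called, 5.17% up and 6.35% down. The median log2 fold change of the 8 was -0.20 in tra1-AA and -0.27 in tra1D, beside 0.006 and 0.004 over all tested genes. Below 0 were 6 of the 8 in tra1-AA and 7 of the 8 in tra1D. Ranges that did not overlap WT were found for 1 gene above and 3 below in tra1-AA (19.8% and 14.9% of tested genes) and for 1 above and 2 below in tra1D (17.6% and 15.1%). The comparisons share the WT libraries, so the values of the mutants are not independent. Between the mutants 1 gene, zym1, had a tra1-AA range below that of tra1D and none above it (4.4% and 4.66% of tested genes). Between them 0 of the 8 were called by edgeR, DESeq2 or limma-voom, where 0.0407% of all tested genes were called by edgeR, 0.0204% in each direction, and 1 of the 8, zym1, had an unadjusted p under 0.05 (3.81% of all tested genes). The authors' deposited table gives the same calls, zym1, zhf1 and loz1 in tra1-AA and zym1 and zhf1 in tra1D. For zym1 the authors' deposited table lists log2 fold changes of 1.27 in tra1-AA and 1.69 in tra1D. DESeq2 run here on the deposited counts gave 1.56 and 1.98 for zym1. For zhf1 in tra1-AA the values were close, at -0.343 deposited and -0.362 in DESeq2 run here. The gap thus differed between genes, and its reason was not tested.

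Further genes of the same metals were taken from 3 lists, chosen with earlier results of these data known: 8 zinc genes, 13 copper genes and 7 genes of metal detoxification. Of these 28, 26 were tested. In tra1-AA 6 of the 26 fell and none rose in edgeR, where 7.96% of all tested genes fell and 7.94% rose. In tra1D 3 fell and none rose, where 6.35% of all tested genes fell and 5.17% rose. The median log2 fold change over the 26 was -0.11 in both mutants. An unadjusted p under 0.05 was found for 10 of the 26 in tra1-AA and 9 in tra1D (30.5% and 26.5% of all tested genes). Between the mutants 1 of the 26, sod1, had such a p, where 3.81% of all tested genes did. After adjustment 0 passed in edgeR, DESeq2 or limma-voom, where edgeR called 0.0407% of all tested genes. No near-identical copy was found for any of the 8 genes.

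Of 7 tested zinc genes 2 fell in tra1-AA and none passed in tra1D, where 7.96% and 6.35% of all tested genes fell. In tra1D 2 of the 7 had an unadjusted p under 0.05 in edgeR, as did 26.5% of all tested genes. In DESeq2 or limma-voom 0 of the 7 passed in tra1D. fet4, encoding a low-affinity iron and zinc transporter, was at 21.96, 22.2 and 23.3 CPM in WT, 17.6, 14.6 and 16.8 in tra1D, with 11.0, 17.3 and 15.8 in tra1-AA, so both mutants lay below WT. It fell by 0.61 in tra1-AA (SE 0.16, edgeR, adjusted p = 0.0275) and its value in tra1D was -0.46 (edgeR, adjusted p = 0.0891). adh4, an alcohol dehydrogenase gene known as a target of Loz1, fell by 0.27 in tra1-AA, from 189 ± 17.3 to 157 ± 5.13 CPM (edgeR, adjusted p = 0.0292), and was at -0.15 in tra1D (edgeR, adjusted p = 0.202). In tra1D fet4 was called with only the 2 groups compared in the fit and without tra1-AA replicate 1, and the authors' deposited table lists it there at an adjusted p of 0.0478. For adh4 in tra1-AA the authors' deposited table lists an adjusted p of 0.0502 (DESeq2), which does not pass. Neither gene's difference between the mutants passed (edgeR, adjusted p = 0.999). adh1, the main alcohol dehydrogenase gene, and the ZIP transporter genes zip3 and zip2 did not pass, with log2 fold changes from -0.17 to 0.18. SPBC1348.06c had no count in any library, and copies cover 100% of its coding sequence, so it says nothing here. The fet4 call was lost without any 1 of the WT libraries or without tra1-AA replicate 1 (edgeR, adjusted p from 0.0519 to 0.0755), and that of adh4 without WT replicate 1 or 2 or any 1 of the tra1-AA libraries (0.0566 to 0.105).

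Among 12 tested copper genes edgeR called the copper amine oxidase genes cao1 and cao2, which fell in both mutants. Of all tested genes 7.96% fell in tra1-AA and 6.35% in tra1D. cao1 was at 215, 246 and 163.5 CPM in WT, 132, 141 and 146 in tra1D, with 134.5, 163 and 144 in tra1-AA, so every mutant library lay below every WT library, tra1-AA replicate 2 only narrowly. It fell by 0.58 in tra1D (SE 0.13, edgeR, adjusted p = 0.0120) and by 0.50 in tra1-AA (SE 0.13, edgeR, adjusted p = 0.0193). cao2 ranged widely in WT, at 53.4, 83.6 and 17.7 CPM, against 13.8, 11.9 and 23.6 in tra1D, with 6.59, 13.3 and 3.31 in tra1-AA. It fell by 2.73 in tra1-AA (SE 0.54, edgeR, adjusted p = 0.00632), a call kept with each library left out at -3.39 to -2.21, furthest without tra1-AA replicate 2, and by 1.68 in tra1D (SE 0.49, edgeR, adjusted p = 0.0469). tra1D replicate 3 overlapped WT for cao2, and the tra1D call was lost in DESeq2 (adjusted p = 0.103), in limma-voom (adjusted p = 0.0979) and in 6 of 9 fits with a library left out. The fits of cao2 that lost it were those without WT replicate 1 or 2, any 1 of the tra1D libraries or tra1-AA replicate 1, with values from -2.02 to -1.15 (edgeR, adjusted p from 0.0531 to 0.165). The authors' deposited table lists cao2 in tra1D at an adjusted p of 0.109 (DESeq2). Its deposited log2 fold changes were far smaller than those of edgeR here, at -0.455 in tra1-AA and -0.405 in tra1D. The reason was not tested.

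The cao1 call in tra1-AA was lost without WT replicate 1 or 2 or tra1-AA replicate 1 or 3 (edgeR, adjusted p from 0.0546 to 0.0689), and its call in tra1D without tra1D replicate 1 (0.0502). sod1, its copper chaperone gene ccs1 and the copper-transporting ATPase gene ccc2 did not pass in either mutant in the main edgeR fit. sod1 was at 388 ± 20.7 CPM in WT, 459 ± 183 in tra1D and 317 ± 39.3 in tra1-AA. The authors' deposited table lists sod1 in tra1-AA at an adjusted p of 0.0481 (DESeq2). atx1, a copper chaperone gene, was at -0.32 in tra1D (SE 0.10, edgeR, adjusted p = 0.0550) and -0.28 in tra1-AA (SE 0.10, edgeR, adjusted p = 0.0776). DESeq2 called atx1 in tra1D, as did edgeR with RLE factors, without WT replicate 2 or without tra1D replicate 1. In tra1-AA atx1 was called without WT replicate 2, and the blocked fit of WT and tra1-AA called sod1 and atx1 beside the 6 genes that fell. The cox11 homologues cox1101 and cox1102 are copies of each other over their whole coding sequence (100%), so their values are uncertain; cox1102 was called in tra1-AA by limma-voom, and by edgeR without tra1-AA replicate 1. cuf2, known as a meiotic relative of cuf1, had at most 1 count in a library and was not tested.

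Of 7 metal detoxification genes 2 fell in tra1-AA and 1 in tra1D, where 7.96% and 6.35% of all tested genes fell. pcs2, encoding phytochelatin synthase, which makes metal-binding peptides, was at 84.2, 79.3 and 88.2 CPM in WT, 67.6, 60.2 and 64.9 in tra1D, with 60.4, 68.8 and 62.4 in tra1-AA, with all mutant libraries below WT. It fell by 0.39 in tra1D (SE 0.08, edgeR, adjusted p = 0.00981) and by 0.39 in tra1-AA (SE 0.08, edgeR, adjusted p = 0.00771), with only the tra1D call lost when a library was left out, tra1D replicate 2 (edgeR, adjusted p = 0.0553). hmt2, encoding a sulfide-quinone oxidoreductase, fell by 0.38 in tra1-AA (SE 0.11, edgeR, adjusted p = 0.0400) from 491 ± 64.9 to 378 ± 37.2 CPM, and was at -0.26 in tra1D (edgeR, adjusted p = 0.156). The hmt2 call was lost without WT replicate 1 or 2, tra1D replicate 1, or tra1-AA replicate 1 or 2 (edgeR, adjusted p from 0.0535 to 0.133). zip1, gcs1 and abc2, genes of a cadmium-responsive transcription factor, of glutathione synthesis and of vacuolar phytochelatin transport, did not pass, with log2 fold changes from -0.13 to -0.001.

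**Figure D5:**
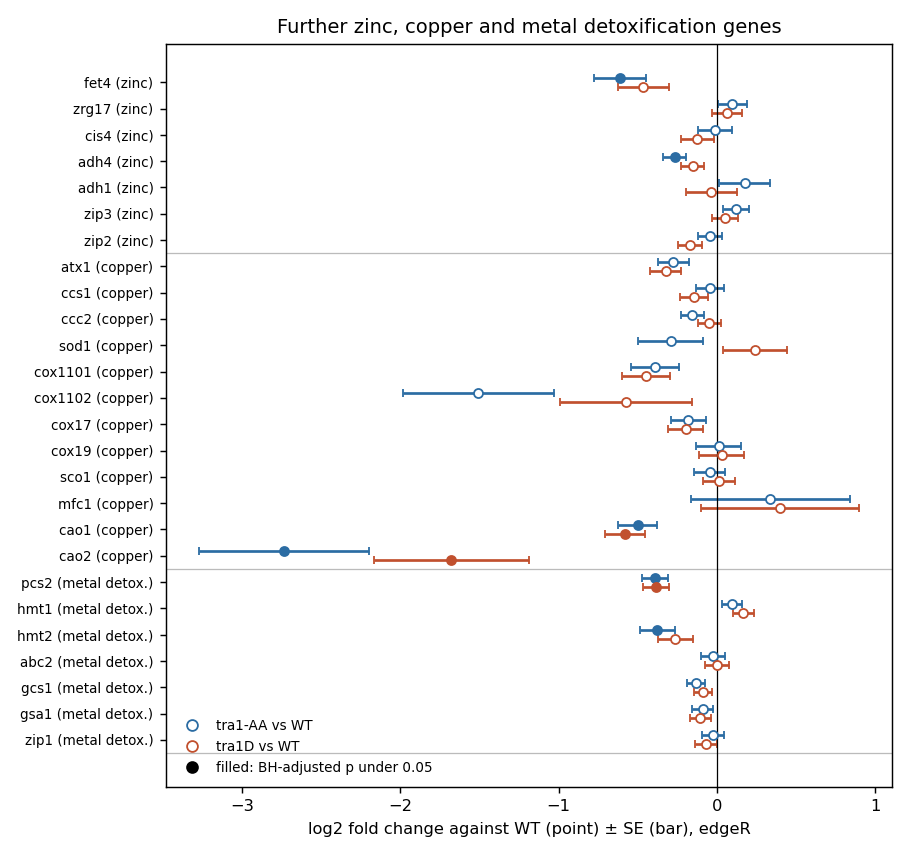
log2 fold change against WT (x axis, points) with its SE (bars) of the 26 tested further genes, grouped by list, in tra1-AA and tra1D. Filled points passed at a BH-adjusted p under 0.05, and all of them lie below 0.

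The genes whose log2 CPM was most like that of each called gene were sought among 4613 others, by Pearson correlation over the 9 libraries, which share their genotype groups. For zym1 they were SPCC1235.01 (r = 0.988), the dihydroxyacetone kinase gene dak1 (0.987) and the glutathione peroxidase gene gpx1 (0.986). Their means in WT, tra1D and tra1-AA were 271, 680.0 and 602 CPM for SPCC1235.01, 291, 515 and 440.0 CPM for dak1, and 120, 178 and 164 CPM for gpx1, in each case highest in tra1D as for zym1. For zhf1 they were puf1, naf1 and the siderophore transporter gene str1, with r from 0.978 to 0.980, and for loz1 liz1, eis1 and SPBC1652.02, with r from 0.918 to 0.950. A correlation does not show the size of a change. str1 had log2 fold changes of -2.42 in tra1D and -2.13 in tra1-AA, beside -0.39 and -0.35 for zhf1. Its WT level was 122 ± 101 CPM.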

How the data were processed

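The submitters' processing notes name bcl2fastq, HISAT2 2.1.0 and HTSeq 0.9.1 as the authors' tools; reads were single and 50 bases long. The deposited count table holds raw counts per gene for 9 libraries of a stranded TruSeq kit; their genome build, annotation and strand setting are not given in sources used here. The deposited comparison tables give, per the file headers, the authors' log2 fold change, its SE, p-value and adjusted p-value (DESeq2 1.18.1, per the submitters' processing notes). Without the strand setting, reads of a gene and its antisense partner cannot be told apart, and antisense transcripts annotated in ASM294v3 overlap 1395 of 1780 bases of zhf1, 1068 of 1139 of ctr6 and 451 of 1164 of ctr5.

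Genes were kept by filterByExpr (minimum count 10, total 15), which left 4913 of 5129 genes, and 66 had no count. All libraries entered 1 quasi-likelihood model in edgeR 4.0.16 (TMM factors, R 4.3.3), which gave 3 comparisons, called at a BH-adjusted p under 0.05. It was also run on counts simulated from its own dispersion estimates with changes set in tra1D only. That run could not test the library differences described here. Replicates were not copies (chi-square per degree of freedom 8.41 to 28.78). Gene IDs were matched to RefSeq ASM294v3 (5114 of 5129). Copies were sought with BLAST 2.17.0 (98% identity, 50 bases). Same-numbered libraries of WT and tra1-AA deviated together (every correlation over 0.1), so a blocked fit of these groups was added after seeing the data. The labels do not state a pairing, and some differently numbered pairs with tra1D also had correlations over 0.1. Alternatives were DESeq2 1.42.0, limma-voom (limma 3.58.1), other scalings, filters and fits, and each library left out. The 8 genes and the lists were chosen with earlier results of these data known. Named genes are the 8, all called genes of the lists with up to 3 uncalled genes of highest CPM each, and the 3 most correlated genes (mean of at least 10 CPM, log2 with prior count 2) per called gene; ctr4 to ctr5 ratios, the ranks in tra1D replicate 3, frp1, atx1, SPBC1348.06c, cuf2 and the cox11 homologues were added after values were seen. Of 28 list names 1 was not found, and cox11 matched 2 genes. Levels per kb used the ASM294v3 coding length. Per-sample columns left unused numbered 0.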

Additional observations from a re-analysis of the deposited data

How the results depend on the processing

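The rises of zym1 passed in both mutants under every alternative run. Scaled by library totals alone, 1 of the 8 genes, zym1, was called in each mutant (3 and 2 with TMM), and of the further genes 1, cao1, in tra1D. That scaling called 685 of all genes in tra1-AA and 587 in tra1D. With only the 2 groups compared in the fit, 3 further genes were called in tra1-AA (6 in the fit of all libraries). Of all genes 552 were called in that fit. With a library left out, 1 to 3 of the 8 genes were called in tra1-AA, 1 only without tra1-AA replicate 2, and 2 in tra1D in each fit, though ctr6 replaced zhf1 without tra1D replicate 2. For the further genes these counts were 2 to 6 in tra1-AA, lowest without WT replicate 1, and 1 to 3 in tra1D, lowest without tra1D replicate 2. With the replicate block in the fit of all libraries, 2 of the 8 were called in each mutant, and 5 and 2 further genes in tra1-AA and tra1D, with cao2 lost in tra1D (adjusted p = 0.0770) and hmt2 in tra1-AA (adjusted p = 0.0650). With the replicate block in fits of the 2 groups compared, 5 of the 8 were called in tra1-AA and 2 in tra1D, with 8 and 2 further genes. Over all genes these fits called 903 in tra1-AA and 386 in tra1D, beside 781 and 566 in the main fit. The block in the fit of all libraries called 718 and 514. Over all genes, leaving out a library gave 364 to 845 calls in tra1-AA (781 with all, lowest without tra1-AA replicate 2, 398 without WT replicate 1) and 278 to 655 in tra1D (566 with all, lowest without tra1D replicate 2, 281 without WT replicate 1, 323 without tra1D replicate 3). Between the mutants 2 to 5 genes were called, 5 without tra1D replicate 2 or tra1-AA replicate 2. Directions turned in uncalled values: ctr4 in tra1D (0.054 without tra1D replicate 3), and between the mutants zrt1 (0.0002 without tra1-AA replicate 3), zhf1 (-0.012 without tra1D replicate 2) and ctr6 (-0.08 without tra1D replicate 3, -0.0041 without tra1-AA replicate 1). With libraries left out these ranged from -0.792 to 0.054 (ctr4), -0.099 to 0.0002 (zrt1), -0.012 to 0.069 (zhf1) and -0.08 to 0.189 (ctr6). The causes of these changes were not tested. Without division by length 5 of the 8 genes took another place in the WT order, and with transcript length 2 did. Summed over the 3 libraries of a genotype, zym1 had 398 counts in WT, fet4 306 in tra1-AA and cao2 163 in tra1-AA, which limits their precision.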

Other observations

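The balance between the subunit genes of the plasma membrane copper transporter differed between libraries, a ratio chosen after the values were seen and so given without a test. The ratio of ctr4 to ctr5 per coding length needs no scaling between libraries. It was 0.567, 0.556 and 0.633 in WT, 0.883, 0.852 and 1.03 in tra1-AA, and 0.965, 0.811 and 0.475 in tra1D. All tra1-AA libraries and tra1D replicates 1 and 2 lay above the WT range, and tra1D replicate 3, the library with the lowest ctr4 and ctr5, lay below it.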
